A study of Rattus norvegicus with 6 samples.

Results

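Tagln and Sidt2 are neighbouring genes whose loci overlap in the annotation behind the deposited table. Both rows were selected by gene name, so that 2 of the 30957 genes in the table are described here, and both passed the filter for low counts. They were chosen because their counts were already known to separate the livers of the 2 groups in opposite directions. Their difference between groups is therefore given as a description without a test.

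The livers came from female Sprague Dawley rats, 3 weeks old on arrival, that were made pseudo germ-free with an antibiotic cocktail given in 3 courses in the drinking water. Faecal microbiota were then gavaged daily for 14 days. Rats of the t-DHEA group received pooled pellets from donors injected with dehydroepiandrosterone (DHEA), an androgen precursor used to model polycystic ovary syndrome, and rats of the t-PBS group received pellets from donors injected with phosphate buffer saline. RNA was sequenced from 3 livers per group. All 6 rats had thus been treated with antibiotics and transplanted, and the methods describe no injection of DHEA into recipients.

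Tagln encodes transgelin, also named SM22-alpha, an actin-binding protein of the calponin family. It is an early marker of smooth muscle cells and is switched on in stellate cells that turn into myofibroblasts. Its transcription is driven by serum response factor (SRF) with myocardin or related cofactors, and it responds to TGF-beta. Sidt2 encodes a protein with many membrane spans that resides in the lysosomal membrane and takes part in the transport of RNA into lysosomes. The study compared the groups to ask what microbiota shaped by DHEA do to the liver of a recipient.

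In the Rnor_6.0 genome, the Tagln locus (ENSRNOG00000017628) ran from 50222896 to 50231357 on chromosome 8, and the Sidt2 locus (ENSRNOG00000017871) from 50230339 to 50246656. The loci shared 1019 bases, from 50230339 to 50231357. This was 12.04% of the Tagln locus and 6.24% of the Sidt2 locus. Dividing each count by its FPKM and by the library total gave the length used by the authors, which was 1598 bases for Tagln and 4987 bases for Sidt2 in every liver. Both lengths are shorter than the loci, which include introns. The table does not list exons, so the number of shared bases that were exonic in either gene was not determined. In the RefSeq annotation of the newer assembly GRCr8, the loci of Tagln and Sidt2 were adjacent, with 0 genes lying between them, and they did not overlap.

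RefSeq places Sidt2 on the minus strand of GRCr8, with its start at the end farther from Tagln. The shared bases of Rnor_6.0 also lie at the end of the Sidt2 locus nearer to Tagln. The 250 bases before a RefSeq start of Sidt2 (GRCr8, chr8:55145409-55145658, minus strand) are printed, with matches to TATAAA and CCAAT in capitals. The RefSeq locus of Sidt2 extends past this window, which therefore lies inside the gene and precedes only one of its possible starts.
Sidt2 upstream: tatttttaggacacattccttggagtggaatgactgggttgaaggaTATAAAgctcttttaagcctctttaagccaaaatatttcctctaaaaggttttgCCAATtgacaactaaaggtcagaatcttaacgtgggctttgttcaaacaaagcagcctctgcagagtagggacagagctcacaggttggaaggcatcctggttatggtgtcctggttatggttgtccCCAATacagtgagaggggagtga

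Both strands were searched for 5 motifs that do not overlap each other in this window. TATAAA began 204 bases before the start, and such a match was present in 12.9% of 33469 RefSeq windows of the same length. CCAAT began 150 and 23 bases before it, and was present in 34% of windows. No match was found for GGGCGG, which 30.5% of windows held, for CACGTG, the core of the element bound by the lysosomal regulator Tfeb, which 5.59% held, or for the CArG box bound by SRF, which 1.5% held.

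Livers of t-PBS rats 1 to 3 had 140, 171 and 130 Tagln counts, whereas those of t-DHEA rats 1 to 3 had 297, 281 and 280. As CPM, the counts scaled to a common library size with TMM factors, the t-PBS livers were at 9.81, 12.6 and 9.81 and the t-DHEA livers at 24.5, 21.0 and 21.6. Each t-DHEA liver lay above each t-PBS liver, with 8.41 CPM between the nearest livers of the groups. The mean level was 10.7 ± 1.61 CPM (SD, n = 3) in t-PBS and 22.4 ± 1.87 CPM (SD, n = 3) in t-DHEA livers. Its log2 fold change was 1.06 (SE 0.13), a level 2.08-fold higher in t-DHEA livers.

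Sidt2 had many more counts, namely 4162, 3599 and 3336 for t-PBS rats 1 to 3 against 1887, 2520 and 2115 for t-DHEA rats 1 to 3. In CPM, the t-PBS livers were at 292, 265 and 252 and the t-DHEA livers at 156, 189 and 163. Here each t-DHEA liver lay below each t-PBS liver, and 63.3 CPM separated the nearest livers. The mean level was 270 ± 20.3 CPM (SD, n = 3) in t-PBS and 169 ± 17.1 CPM (SD, n = 3) in t-DHEA livers. Its log2 fold change was -0.67 (SE 0.11), so that the t-PBS level was 1.59-fold higher than the t-DHEA level. These standard errors come from the fit across all 12210 genes tested, in which 4.95% of genes met the thresholds (unadjusted p under 0.05 together with a fold-change over 1.2), 1.97% higher and 2.98% lower in t-DHEA livers. The groups did not overlap for 4.66% of genes in the direction of Tagln and for 5.42% in the direction of Sidt2. Since the genes were chosen for this contrast, nothing is read from these shares.

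**Figure D1:**
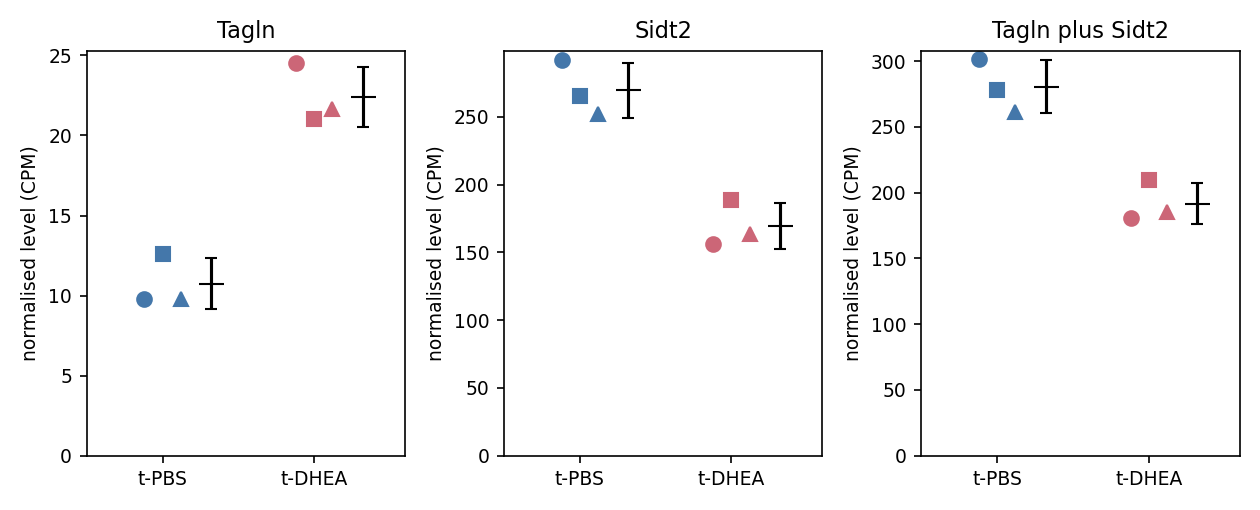
TMM-normalised level (CPM, axis from 0) of Tagln, of Sidt2 and of both summed, in the 3 t-PBS livers (blue) and the 3 t-DHEA livers (red), with circles, squares and triangles for rats 1, 2 and 3 of each group. The black mark and bars give the mean and SD, and the groups do not overlap in any panel, with Tagln higher and both Sidt2 and the sum lower in t-DHEA livers.

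The SD was 15.0% of the mean in t-PBS and 8.35% in t-DHEA livers for Tagln, and 7.53% and 10.1% for Sidt2, in CPM. The liver with the most Tagln, t-DHEA rat 1, was also the one with the least Sidt2. Within the t-DHEA group the order was mirrored, as Tagln fell and Sidt2 rose from rat 1 to rat 3 to rat 2. In the t-PBS group the order of the livers was not mirrored, as rat 2 had the most Tagln but rat 3 the least Sidt2.

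Compared per length, Sidt2 was the more highly expressed gene in each of the 6 livers. The authors' FPKM values of Tagln were 6.12, 8.21 and 6.14 for t-PBS rats 1 to 3 against 15.1, 13.0 and 13.4 for t-DHEA rats 1 to 3. Those of Sidt2 were 58.3, 55.4 and 50.5 against 30.6, 37.3 and 32.4. On this scale Sidt2 exceeded Tagln by a ratio of 8.16 ± 1.39 (SD, n = 3) in t-PBS and of 2.44 ± 0.419 (SD, n = 3) in t-DHEA livers. Over both groups, the mean FPKM of Tagln was higher than that of 67.0% of the genes tested, and that of Sidt2 higher than that of 89.8%.

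The opposite changes were unequal in size. The mean level of Tagln was 11.6 CPM higher in t-DHEA than in t-PBS livers, whereas that of Sidt2 was 100.4 CPM lower. In CPM, the difference in Tagln was thus 11.6% of that in Sidt2, which was 8.62 times as large. CPM is not scaled by length, and in FPKM the differences were 6.99 for Tagln and -21.3 for Sidt2. By fold the order was reversed, as the log2 fold change was 1.06 for Tagln and -0.67 for Sidt2. The rows of both genes were also added and the whole table was fitted again. Since Sidt2 makes up most of the sum and was chosen for its difference, the direction of the sum was fixed by that choice, and the sum is given as a description that says nothing of how reads were assigned. The summed level was 280 ± 20.1 CPM (SD, n = 3) in t-PBS and 192 ± 15.7 CPM (SD, n = 3) in t-DHEA livers. The log2 fold change of the sum was -0.55 (SE 0.10), and the groups did not overlap. How reads mapping to both loci were counted by the authors is not given in the sources used here.

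Read assignment bears more on Tagln, as its counts are few beside those of Sidt2. Of the counts of the pair, Tagln took 3.25%, 4.54% and 3.75% for t-PBS rats 1 to 3, against 13.6%, 10.03% and 11.7% for t-DHEA rats 1 to 3. The highest upper limit in a t-PBS liver was 5.25% and the lowest lower limit in a t-DHEA liver was 8.97% (95% Wilson intervals, which cover counting error only). Because the genes were chosen for opposite differences, the separation of the shares was fixed by that choice, and the shares are a description only. The mean share was 3.85% ± 0.646 (SD, n = 3) in t-PBS and 11.8% ± 1.78 (SD, n = 3) in t-DHEA livers. By FPKM, which corrects for length, the mean share was 11.1% ± 1.72 (SD, n = 3) and 29.3% ± 3.56 (SD, n = 3), respectively. A count of reads within the shared bases was not analysed here, and the strandedness of the libraries is not given in the sources used. The part of read assignment in the difference in Tagln was not tested.

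**Figure D2:**
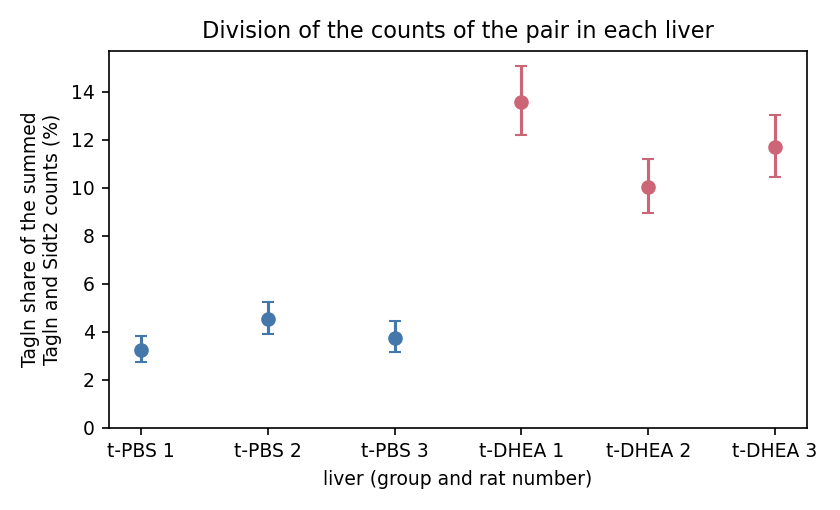
Tagln counts as a percentage of the summed Tagln and Sidt2 counts (axis from 0) in each of the 6 livers, with t-PBS in blue and t-DHEA in red. Bars are 95% Wilson intervals for counting error, and the shares run from 3.25% to 4.54% in t-PBS and from 10.03% to 13.6% in t-DHEA livers. Their separation follows from the choice of the genes.

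The other genes of the region were examined next. Within 250 kb of the pair, 7 other genes were listed and 6 of them were tested. None of the 6 met the thresholds by the edgeR quasi-likelihood test, and 0 had an unadjusted p under 0.05. The count was also 0 by DESeq2, by the likelihood-ratio test of edgeR and by limma on log2(FPKM + 0.1). As 4.95% of all genes met the thresholds, 0 of 6 genes is near that share. Pcsk7, a proprotein convertase whose locus ends 265 bases before that of Tagln, had 26.5 ± 1.504 CPM in t-PBS and 24.4 ± 2.24 CPM in t-DHEA livers (SD, n = 3) and a log2 fold change of -0.12. Pafah1b2, a subunit of platelet-activating factor acetylhydrolase that lies 12591 bases beyond Sidt2, had one of 0.11 (SE 0.12). Those of Cep164, Bace1, Rnf214 and Sik3 were -0.067, 0.0099, 0.045 and -0.039. Dscaml1 was below the filter for low counts. For all 6 genes tested the groups overlapped, and no locus of the 7 overlapped Tagln or Sidt2.

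**Figure D3:**
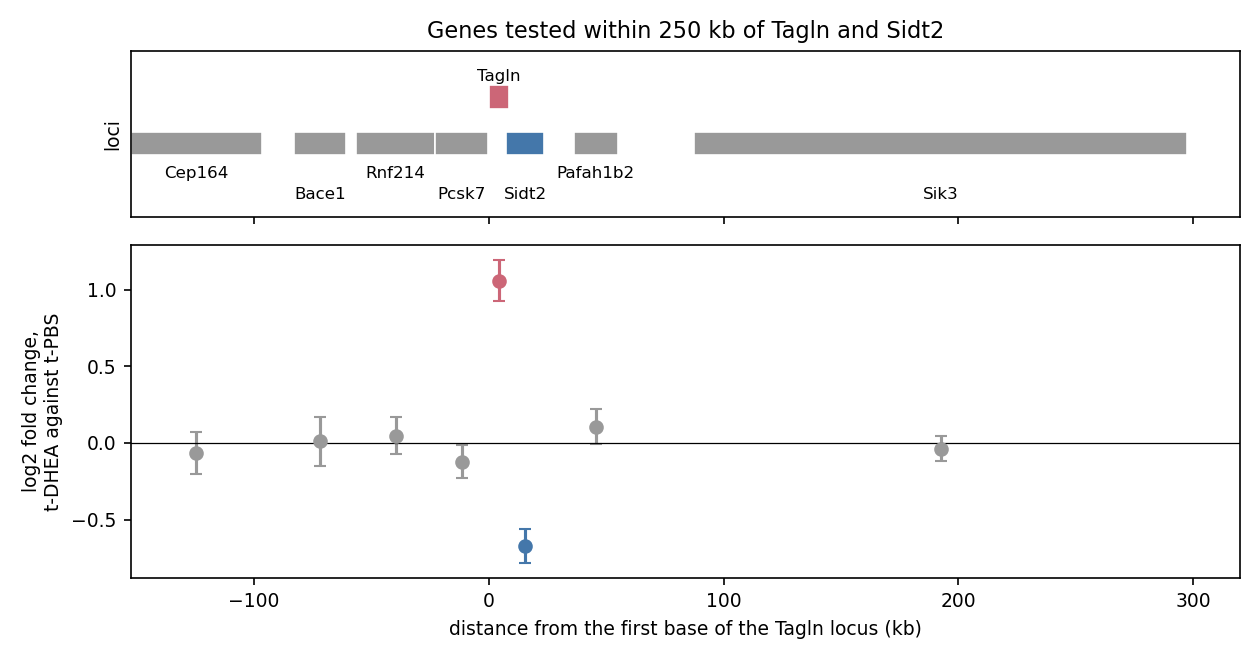
Loci of the 8 genes tested within 250 kb (top, Tagln drawn above the line to show its overlap with Sidt2) and their log2 fold changes between t-DHEA and t-PBS livers with standard errors (bottom), against the distance in kb from the first base of the Tagln locus. Tagln lies at 1.06 and Sidt2 at -0.67, while the 6 grey genes lie between -0.12 and 0.11.

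Overlapping loci are common in this annotation. Among the genes tested there were 584 pairs whose loci overlapped, and in 230 of them one locus lay wholly inside the other. The overlap was no longer than the 1019 bases of Tagln and Sidt2 in 280 pairs. The log2 fold changes had opposite signs in 283 pairs, or 48.5%. Both genes met the thresholds in 3 pairs, and in 2 of these the directions were opposite. Tagln with Sidt2 was one of these. In the pair whose genes changed in the same direction, Hbb-b1, a beta-globin gene, and AC113925.2 both rose, by 1.02 and 1.12 on the log2 scale. As globin genes have near-identical copies that share reads, the values of this pair are uncertain. In 5 of the 584 pairs, Tagln and Sidt2 included, the groups did not overlap for either gene and the directions were opposite. Tagln and Sidt2 were chosen for this pattern, so their place in these counts was fixed and nothing is read from it.

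**Figure D4:**
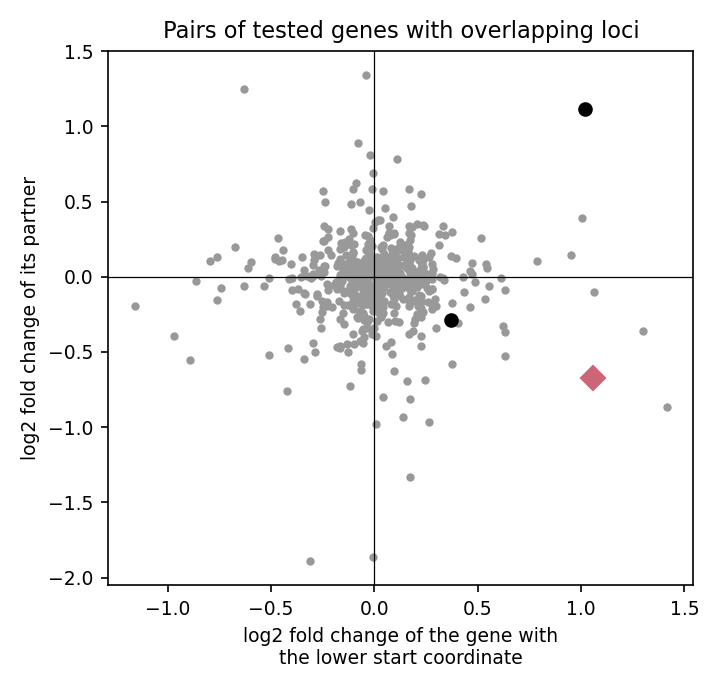
For each of 584 overlapping pairs, log2 fold changes of both genes (t-DHEA over t-PBS), with the gene of lower start coordinate on the horizontal axis and its partner on the vertical axis. The red diamond is Tagln (1.06) with Sidt2 (-0.67), black points are the other 2 pairs in which both genes met the thresholds, and the grey points spread around 0 in every direction.

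Tagln was then set beside other genes of smooth muscle. Of 20 contractile and cytoskeletal genes listed, 18 were tested, of which 14 were lower and 4 higher in t-DHEA livers. The list, which leaves out Tagln, had a median log2 fold change of -0.11, against 0.0013 over all genes tested. By the thresholds, 0 of the 18 rose, whereas 3 fell, beside 2.98% of all genes that were called lower. These were Flna, which encodes the actin cross-linker filamin A, Ppp1r12b, a targeting subunit of myosin phosphatase, and Csrp1, a LIM domain protein, with log2 fold changes of -0.39, -0.33 and -0.27. Flna had 40.4 ± 8.26 CPM in t-PBS and 30.8 ± 4.03 CPM in t-DHEA livers (SD, n = 3), where the groups overlapped and edgeR gave an adjusted p of 0.957. This count rests on single livers, since 0 genes of the list met the thresholds without t-PBS rat 2 and 1 did without t-DHEA rat 2.

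The genes that most strictly mark smooth muscle had few counts. Acta2, smooth muscle actin, had 65, 87 and 61 counts in the t-PBS against 72, 56 and 38 in the t-DHEA livers. Myh11, smooth muscle myosin heavy chain, had 100, 75 and 50 counts against 105, 151 and 34. Its log2 fold change was 0.47 (SE 0.45), and it was called higher once t-DHEA rat 3 was left out. Cnn1, which encodes calponin 1, had 4, 3 and 1 counts against 13, 20 and 2, and was below the filter for low counts. Without this filter Cnn1 was called higher with all 6 livers, at a log2 fold change of 2.18 that rests on these few counts, which made 4 genes of the list called. It also passed the filter and was called higher without t-PBS rat 1, at 2.53, and without t-DHEA rat 3, at 2.68, but was not called without t-PBS rat 2, at 2.27, or without t-PBS rat 3, at 1.82. In t-DHEA rat 3, the liver with the fewest counts of Acta2, Myh11 and Cnn1 in its group, Tagln was at 21.6 CPM and so within the range of the other t-DHEA livers. The summed level of Acta2, Myh11, Cnn1, Lmod1 and Actg2, the markers of vascular smooth muscle, ran from 9.44 to 14.5 CPM in t-PBS and from 6.03 to 19.4 CPM in t-DHEA livers, so the groups overlapped.

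Of the other calponin family members listed, Tagln2 was the closest relative with reads. Tagln2 had 48.9 ± 12.5 CPM in t-PBS and 39.0 ± 4.68 CPM in t-DHEA livers (SD, n = 3). Its log2 fold change was -0.33, with an unadjusted edgeR p of 0.105. Cnn2 and Cnn3 had log2 fold changes of -0.55 and 0.02, and Tagln3 had no count in any liver. None of these 3 members, which passed the filter, met the thresholds, beside 4.95% of all genes. Cnn1 belongs to the family too, and was called higher without the filter, as described above. Among SRF, its cofactors and TGF-beta signalling genes, 12 of 13 entries matched and 10 were tested. Of these, 1 met the thresholds, beside 4.95% of all genes. This gene, Tgfb1, the ligand TGF-beta 1, fell by 0.51 on the log2 scale, from 12.5 ± 0.202 to 8.77 ± 1.11 CPM (SD, n = 3), with an adjusted edgeR p of 0.801. Srf, the receptor gene Tgfbr1 and the signal transducer Smad3 had log2 fold changes of 0.11, 0.12 and 0.17 and did not meet them. Myocd, the gene of myocardin, had 1, 0 and 0 counts in t-PBS and 0, 1 and 0 counts in t-DHEA livers.

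Sidt2 was set beside 29 other genes of the lysosomal membrane, of which 28 were tested. By the edgeR quasi-likelihood test 0 of the 28 met the thresholds, beside 4.95% of all genes, and 0 had an unadjusted p under 0.05. With DESeq2, the likelihood-ratio test or limma on FPKM, 0 also had an unadjusted p under 0.05. At that share few of 28 genes would be called, so little is read from this count. Of the 28, 16 were higher and 12 lower in t-DHEA livers, and the median log2 fold change was 0.017. The log2 fold changes of Lamp1 and Lamp2, the major membrane glycoproteins of lysosomes, were -0.037 (SE 0.11) and 0.055 (SE 0.097). Scarb2, the receptor that brings glucocerebrosidase to lysosomes, had the lowest p of the list. Its level was 66.5 ± 5.15 CPM in t-PBS and 76.4 ± 3.34 CPM in t-DHEA livers (SD, n = 3), which did not overlap, at an unadjusted edgeR p of 0.0611. The log2 fold changes of Ctns, the cystine exporter, and of Tpcn1, a cation channel, were -0.27 and 0.19. When single livers were left out, the number called was 2 without t-PBS rat 3, 1 each without t-PBS rat 2, t-DHEA rat 1 and t-DHEA rat 3, and 0 without either of the other livers. The summed level of the list was 1799 to 2000 CPM in t-PBS and 1897 to 1991 CPM in t-DHEA livers.

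For 12 genes of autophagy and RNA sensing, all of which were tested, 0 met the thresholds and 0 had an unadjusted p under 0.05, by edgeR or DESeq2. With 4.95% of all genes called, 0 of 12 is near that share. Their median log2 fold change was 0.071. Among them Gabarap, an adaptor of the autophagosome membrane, had a log2 fold change of 0.12, Tfe3, a regulator of lysosomal genes, one of -0.12, and Rnaset2, the ribonuclease of lysosomes, one of 0.099. Sidt1, the only other SID1 family gene listed, had 2, 3 and 0 counts in t-PBS and 1, 1 and 1 counts in t-DHEA livers, so that nearly all SID1 family reads in these livers came from Sidt2.

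**Figure D5:**
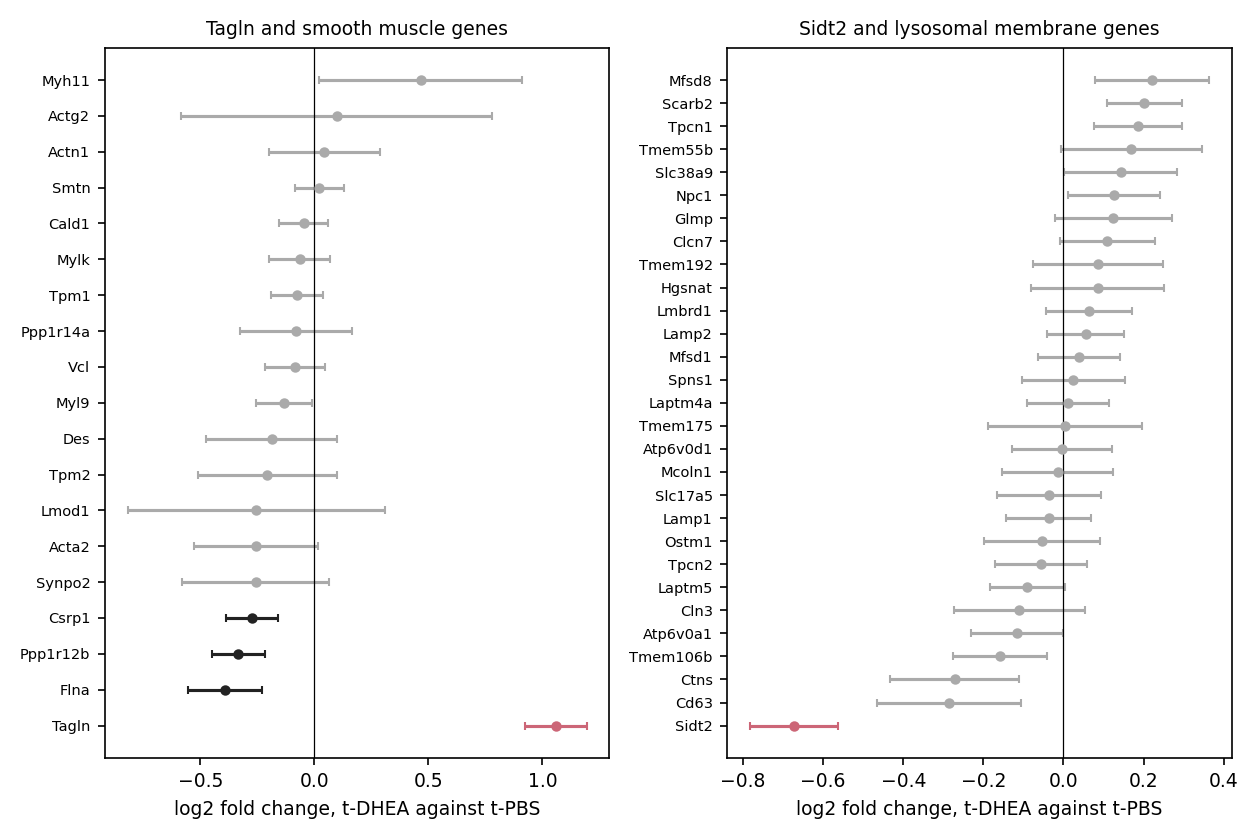
Log2 fold changes (t-DHEA over t-PBS) with standard errors, for Tagln and 18 smooth muscle genes (left) and for Sidt2 and 28 lysosomal membrane genes (right). Each member is in red at the bottom, black marks genes that met the thresholds, and grey marks those that did not. Tagln (1.06) and Sidt2 (-0.67) lie outside the range of the genes plotted, which leave out Cnn1 as below the filter for low counts. Both members were chosen for their difference between groups, so nothing is read from their place.

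In log2 fold change, Tagln was farther from 0 than the 18 smooth muscle genes that passed the filter, but not than Cnn1, which was at 2.18 without it. Sidt2 was farther from 0 than the 28 lysosomal membrane genes tested. Of 5515 genes with a mean CPM (not scaled by length) at least that of Tagln, 12 had a log2 fold change at least as high, Tagln included. Of 493 genes with a mean CPM at least that of Sidt2, 3 had one as low, Sidt2 included. As both genes were chosen for their difference between groups, these places follow from that choice and nothing is read from them. Over the 12210 genes, the edgeR quasi-likelihood test left 0 with an adjusted p under 0.05 and 634 with an unadjusted p under 0.05. The number past the adjusted limit was 28 by the likelihood-ratio test, 24 by DESeq2 and 0 by limma on log2(FPKM + 0.1).

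The profile over the 6 livers was compared with that of 8445 other named genes with a mean of at least 5 CPM, by Pearson's r of log2 CPM. The 5 genes most like Tagln were Recql5, Cutc, Cog7, Ciao1 and Cd22, with r from 0.952 to 0.977. These genes rose far less than Tagln, with log2 fold changes from 0.21 to 0.46. Those most opposite to Tagln were Bcorl1, Klf3, Ipo13, Col27a1 and Oxsr1, with r from -0.971 to -0.988. The 5 genes most like Sidt2 were Abcf1, Cdc42se1, Lnx2, Ipo13 and Prr13, with r from 0.975 to 0.987, and the most opposite were Ciao1, Atg4c, Emc2, Dolk and Cog7, with r from -0.968 to -0.991. Ciao1, Cog7 and Ipo13 were thus at opposite ends of both rankings. With 6 livers and separated groups, r is largely set by the difference between groups, and after subtraction of the group means it was 0.059 for Cd22 with Tagln and 0.95 for Cdc42se1 with Sidt2. Genes without a like difference between groups could not rank high. For smooth muscle genes, r with Tagln over the 6 livers differed from r after subtraction of the group means. It was -0.50 against 0.98 for Flna, -0.015 against 0.96 for Vcl, which encodes vinculin, -0.017 against 0.81 for Cald1, the gene of caldesmon, and -0.77 against 0.68 for Ppp1r12b. It was 0.22 against 0.12 for Myh11 and 0.097 against -0.083 for Smtn. The 11 smooth muscle genes compared were those with a mean of at least 5 CPM, which left out Acta2. Over them, the second measure ran from -0.23 for Mylk to 0.98 for Flna. With 6 livers and the group means subtracted, each value is uncertain, and nothing is read from the highest.

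Total counts ran from 12348511 to 14316886 per liver. The labelled tissue was checked with hepatocyte markers, and Alb, Ttr, Cps1, Ass1 and Apoa1 together gave 119696 to 132601 CPM in t-PBS and 120307 to 147698 CPM in t-DHEA livers. Markers of other cell types of the liver were listed too. Those of stellate cells were of the quiescent state, and myofibroblasts had no list. The methods describe freezing a sample of liver tissue and do not say which part of the liver was taken. In such tissue, fewer cells of a type and less RNA per cell cannot be told apart. Of 7 mesothelial markers, 6 were tested and 4 of these fell, beside 2.98% of all genes. The other 2 tested were Lrrn4 and Gpm6a, and Gpm6a had 148, 139 and 143 counts in t-PBS and 154, 2 and 206 in t-DHEA livers, so that only t-DHEA rat 2 was below the t-PBS livers. Among those that fell, Msln, the gene of mesothelin, had 192, 198 and 217 counts in t-PBS and 42, 15 and 98 in t-DHEA livers. The summed level of mesothelial markers was 35.0 to 37.4 CPM in t-PBS and 1.87 to 28.4 CPM in t-DHEA livers. Bile duct markers were at 18.9 to 23.6 and 9.50 to 17.2 CPM, respectively. Of 5 tested, 2 fell, Krt19 and Krt7, beside 2.98% of all genes. Epcam, at a mean of 9.82 CPM in t-PBS and 8.23 CPM in t-DHEA livers, was not called. Neither were Sox9, at a log2 fold change of -0.68, and Cftr, which was higher at 0.36. For Epcam, Sox9 and Cftr the groups overlapped, so the lower sum rests largely on Krt19 and Krt7. Portal fibroblast markers were at 16.8 to 23.4 and 10.1 to 16.6 CPM, with 0 of 3 tested called and Col15a1 and Mfap4 at 0 in each liver. Quiescent stellate cell markers were at 269 to 296 and 255 to 286 CPM, with 0 of 7 called. Endothelial markers were at 212 to 323 and 303 to 305 CPM. Of 5 tested, 1 rose, the VEGF receptor gene Kdr, beside 1.97% of all genes. Macrophage markers were at 276 to 344 and 308 to 430 CPM, with 0 of 5 called. Over all genes tested, 4.95% were called in either direction. These summed levels were thus lower in t-DHEA livers for mesothelium and bile duct. For portal fibroblasts the nearest livers of the groups were at 16.8 and 16.6 CPM. That sum rests mostly on Eln, at a mean of 15.0 CPM in t-PBS and 10.7 CPM in t-DHEA livers, whose groups overlapped. The part of any of these cells in the change of either gene was not tested.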

How the data were processed

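Liver RNA was extracted with an RNeasy kit, made into paired-end TruSeq libraries and sequenced on a HiSeq Xten. The authors filtered the reads with Seqtk, mapped them to Rnor_6.0 with HISAT2 2.0.4 and counted fragments per gene with StringTie 1.3.0. They deposited raw counts and FPKM values, which divide each count by a fixed gene length and the library total. The annotation release and strandedness are not given in the sources used here, so reads of overlapping genes cannot be assigned with certainty. All value columns were matched to a rat by the labels. Labels and methods do not tie rats to cages, and rats were housed 2 per cage.

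From the counts, edgeR 4.0.16 (R 4.3.3) gave TMM factors. Genes kept by filterByExpr entered a two-sided quasi-likelihood test between groups, with no block. Its p-values set the difference between groups against the spread between these recipient livers only. The methods describe pooling of the donor pellets, so spread between donors is not covered. The study's thresholds were kept (unadjusted p under 0.05, fold-change over 1.2), and adjusted p-values are Benjamini-Hochberg. The study names FPKM as input of edgeR; counts were used here. CPM values are TMM-normalised, and log2 CPM used a prior count of 2. Standard errors were derived from the test statistic. The fit was checked on simulated counts. The members, lists and rules were chosen with earlier results of these data known. Lists were written from general knowledge: 114 genes matched by name, 2 by an older symbol and 2 did not match. Named genes were the members, genes within 250 kb, list genes called or with the 3 lowest p, the 5 most and least alike, and overlapping pairs with both genes called, of which 1 pair is not reported here; others (Acta2, Myh11, Cnn1, Cnn3, Lamp1, Lamp2, Myocd, Smtn, Vcl, Cald1, Mylk, Sidt1, Srf, Tgfbr1 and the marker genes) were named for their roles. Alternatives were DESeq2 1.42.0, limma 3.58.1 on log2(FPKM + 0.1) and log2(FPKM + 1), the likelihood-ratio test, other size factors and filters, a replicate block, other thresholds and each liver left out. Sequence came from RefSeq (GRCr8); a window for Sidt2 matched, and Tagln was not matched. No library was a repeat of another, as chi-square over degrees of freedom was 15.3 or more for each couple of livers.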

Additional observations from a re-analysis of the deposited data

How the results depend on the processing

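The log2 fold changes of Tagln, Sidt2 and their sum kept their direction in each alternative run, from 0.93 to 1.19 for Tagln, from -0.75 to -0.61 for Sidt2 and from -0.62 to -0.49 for the sum. The difference in the Tagln share was 7.93 percentage points by counts and 18.2 by FPKM. The number of genes called was 604, between 514 and 747 with single livers left out, 275 at a fold-change above 1.5 and 0 at an adjusted p below 0.05. Without a filter for low counts, 726 overlapping pairs had opposite signs, of 1422 pairs, since more genes were tested. In the smooth muscle list 1 gene was called with DESeq2, 1 with limma on log2(FPKM + 1), and 0 at a fold-change above 1.5 or an adjusted p below 0.05, and between 0 and 3 with single livers left out. In the lysosomal membrane list, between 0 and 2 were called with single livers left out. Of the neighbours 0 were called in each of 17 alternatives. The cause of these differences was not tested, apart from the filter.

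With the replicate number as a block, 1 smooth muscle gene (Ppp1r12b) and 1 lysosomal membrane gene (Cd63) were called, and the log2 fold changes were 1.06 for Tagln and -0.67 for Sidt2. The labels tie livers of equal number by that number alone. Their deviations from the group means had correlations of -0.0571, -0.0592 and -0.0551 for rats 1, 2 and 3, which cannot show whether they shared a cage. With 3 livers per group, the exact permutation test of a single value cannot give a p below 0.1. Tagln rests on 130 to 297 counts per liver, and its precision is limited accordingly. Whether these rats shared cages is not given in the sources used here.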
